A study of Mus musculus with 4 samples.

Results

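The comparison described here set mouse embryonic fibroblasts labelled Wip1-/- against cells labelled Wip1+/+, both harvested 4 h after 5 Gy of gamma radiation. It used 2 of the 4 arrays of the study, 1 array per genotype. The log2 ratio of the Wip1-/- signal over the Wip1+/+ signal was taken for genes whose probe sets carried a single symbol, after raising every value below a floor of 46.5 to that floor. Of 18193 gene symbols on the array, 11546 had a mean signal over the 4 arrays at or above the filter and were entered, and 6398 of them had a mean signal of 500 or more. The other 2 arrays held unirradiated cells of the same genotype labels, harvested at 0 h. The sources used here do not give the mouse strain, the embryo age, the design of the Wip1 allele or the number of embryos or cultures behind each RNA. With 1 array per group there was no replicate error and no test, so a gene was called only when its signals differed at least 2-fold. The spread between probe sets of the same gene served as a partial guide to measurement error.

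Wip1, encoded by Ppm1d, is a nuclear serine/threonine phosphatase whose own gene is a p53 target. It dephosphorylates p53, ATM, Chk1, Chk2, H2AX and p38 MAP kinase and thereby helps to switch off the DNA damage response. After gamma radiation p53 is stabilised and raises the transcription of genes for cell cycle arrest, apoptosis, DNA repair and its own inhibitor Mdm2. The design text of the study names p53 target genes as what the arrays were meant to measure.

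The irradiated arrays matched closely in their spike-in controls, which was known when this comparison was chosen. Across 18 spike-in controls the SD of the log2 ratio between them was 0.095, and 0 controls differed by 1.5-fold or more. Pairs that included the unirradiated Wip1-/- array had SDs of 0.44 to 0.47, with 5 or 6 controls past 1.5-fold, so that array stood apart. The SD of the 4 h log2 ratio was 0.48 over all genes entered and 0.33 over genes whose mean signal reached 500. The corresponding SDs between probe sets of the same gene were 0.41 and 0.23. Fibroblast matrix genes were strongly present on both arrays: Col1a1, a chain of type I collagen, gave 30332 on the irradiated Wip1+/+ array and 34112 on the Wip1-/- array.

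Ppm1d itself was not lower on the array labelled Wip1-/-. Of its 2 probe sets the brighter gave 364 on the irradiated Wip1+/+ array and 482 on the Wip1-/- array, a log2 ratio of 0.40. The other probe set gave 463 and 561, a log2 ratio of 0.28. The sources used here do not place these probes inside or outside the region that was targeted, so the signals neither check nor contradict the genotype labels. Each direction below is therefore a difference between the arrays as labelled.

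Past the 2-fold limit lay 271 genes (2.35%) higher on the Wip1-/- array and 340 (2.94%) lower on it, which together made 5.29% of the genes entered. Most of these calls came from dim genes. Between mean signals of 67.95 and 200, 200 of 2711 genes were higher and 232 lower (15.9% in all), whereas from 2000 upward 7 of 2353 were higher and 11 lower (0.765%). Of the genes whose mean signal reached 500, 33 (0.516%) were higher and 51 (0.797%) lower, together 1.31%. On 89 of the 271 higher genes and 113 of the 340 lower genes one array was at the floor, so that the fold is a bound. The median log2 ratio over all genes was -0.00, and ratios above 1 made up 49.1% and ratios below 1 50.6% of the genes.

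**Figure D1:**
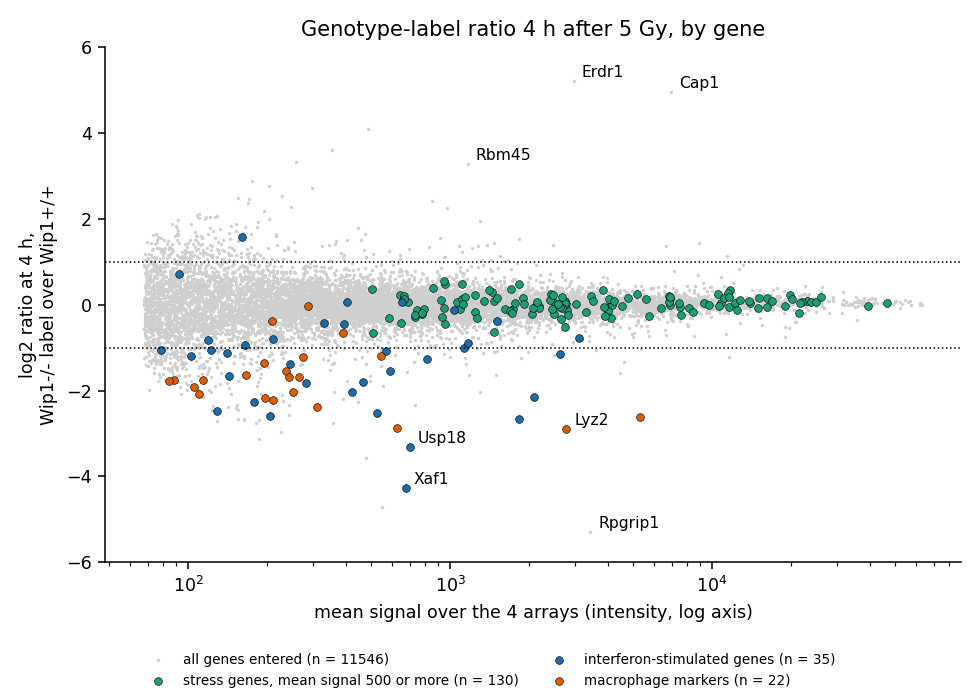
Log2 ratio of the Wip1-/- over the Wip1+/+ array at 4 h (vertical axis) against the mean signal over the 4 arrays (horizontal log axis), 1 point per gene, with dotted lines at 2-fold. Calls crowd at low signal, the 22 macrophage markers lie below 0, 22 of 35 interferon-stimulated genes lie below the lower line, and the 130 stress genes lie between the lines. A point with 1 array at the floor is a bound.

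Interferon-stimulated genes were lower on the irradiated Wip1-/- array. These genes encode antiviral sensors and effectors, and many are switched on by type I interferon through a promoter element called the ISRE. Of 51 listed genes, 35 passed the filter on low signals. Among these 35, 31 had a ratio below 1 and 22 were at least 2-fold lower, beside 2.94% of all genes, while 1 was at least 2-fold higher. Their median log2 ratio was -1.12, against -0.00 for all genes. On 28 of the 35 both Wip1-/- arrays were below both Wip1+/+ arrays, beside 18.7% of all genes entered. Since the filter used the mean over the 4 arrays, a member could pass on the Wip1+/+ signal alone and then had to be lower, so these counts describe the members that passed. On 30 of the 35 the mean of the Wip1-/- arrays reached the filter by itself, and 17 of these 30 were at least 2-fold lower, beside 1.93% of all genes chosen that way. Where the mean of the Wip1-/- arrays reached 500, 4 of 9 members were, beside 0.423%. Without Xaf1, whose probe sets ran opposite ways, the count was 21 of 34.

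Promoter sequences are shown for 4 of these genes that differed by at least 2-fold and held the ISRE letters before their start site. They are the 250 bases before the RefSeq start of each gene on GRCm38.p6, read 5′ to 3′ on the strand of the gene, and capitals mark matches to GAAANNGAAA on either strand.
Bst2: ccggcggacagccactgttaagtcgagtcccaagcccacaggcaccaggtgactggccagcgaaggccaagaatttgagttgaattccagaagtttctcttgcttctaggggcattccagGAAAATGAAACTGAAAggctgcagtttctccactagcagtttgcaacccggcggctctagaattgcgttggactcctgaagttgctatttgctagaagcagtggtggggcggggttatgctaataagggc
Ifit1: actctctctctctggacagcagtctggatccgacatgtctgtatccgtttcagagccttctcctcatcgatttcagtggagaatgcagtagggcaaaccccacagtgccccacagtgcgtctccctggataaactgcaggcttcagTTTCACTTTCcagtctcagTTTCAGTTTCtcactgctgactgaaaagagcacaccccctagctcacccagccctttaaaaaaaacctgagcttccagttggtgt
Ifit3: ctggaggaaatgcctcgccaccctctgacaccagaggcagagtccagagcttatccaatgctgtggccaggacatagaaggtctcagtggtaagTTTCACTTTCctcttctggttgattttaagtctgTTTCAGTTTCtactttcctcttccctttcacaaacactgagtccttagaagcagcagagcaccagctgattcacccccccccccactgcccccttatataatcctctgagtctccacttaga
Igtp: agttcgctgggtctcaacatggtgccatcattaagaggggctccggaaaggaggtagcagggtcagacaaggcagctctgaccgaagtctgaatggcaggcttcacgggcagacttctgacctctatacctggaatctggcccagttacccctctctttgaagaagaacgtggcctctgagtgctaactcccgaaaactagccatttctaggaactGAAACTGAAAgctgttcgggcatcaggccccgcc
The Bst2 window is chr8:71537473-71537722 on the minus strand, and its 2 matches overlap each other, starting 130 and 124 bases before the start site. Ifit1 lies at chr19:34640639-34640888 and Ifit3 at chr19:34583279-34583528, both on the plus strand, and each has 2 separate matches on the opposite strand. Igtp lies at chr11:58199306-58199555 on the plus strand with 1 match, 34 bases before the start site. Over windows of 300 bases, from 250 before to 50 after the start, GAAANNGAAA on either strand occurred in 1131 of 32851 RefSeq promoter windows (3.44%). By gene, 329 of the 9370 genes entered here that had a window held it (3.51%). Of the 35 interferon-stimulated genes, 29 had a window and 15 of these held it, and of the 22 that were at least 2-fold lower, 17 had a window and 11 held it. Among the macrophage markers and the p53 targets described further on, 2 of 14 and 1 of 48 genes with a window held it. A match describes letters in a window and does not show that a factor binds there.

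Among negative regulators and effectors of the interferon response, Usp18, which removes ISG15 from proteins and dampens interferon receptor signalling, gave 1395 at 0 h and 1207 at 4 h on the Wip1+/+ arrays. On the Wip1-/- arrays it gave 80.9 and 122, so at 4 h it was 9.93-fold lower. Bst2, also called tetherin, holds budding virus particles at the cell surface. Its signals were 3255 and 3175 in Wip1+/+ cells and 387 and 498 in the cells labelled Wip1-/-, 6.38-fold lower at 4 h. Ifit1, which binds viral RNA lacking the host cap modification, gave 348 and 277 against 29.4 and 57.5, 4.81-fold lower at 4 h. In each of these genes both Wip1-/- signals lay below both Wip1+/+ signals. The Wip1-/- signals of Usp18 were further apart from each other, as a ratio, than its Wip1+/+ signals were. For Ifit1 the 29.4 is below the floor. Ifit3, a partner of Ifit1, gave 344 and 442 against 213 and 125, a log2 ratio of -1.83.

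Cytosolic RNA sensors differed in size. Ifih1, which encodes the double-stranded RNA sensor Mda5, gave 670 on the irradiated Wip1+/+ array and 165 on the Wip1-/- array, a log2 ratio of -2.02. Ddx58, which encodes RIG-I, gave 1347 and 673 and sits just past the 2-fold limit, while its other probe sets, both dim, had log2 ratios of -0.83 and 0.39. Eif2ak2, the RNA-activated kinase PKR, gave 1202 and 502, a log2 ratio of -1.26. At 0 h Eif2ak2 gave 809 and 738, so in this probe set the labels were close before irradiation and apart at 4 h. That 0 h comparison uses the Wip1-/- array that stood apart in its spike-in controls. The other probe sets of Eif2ak2 had log2 ratios of -1.07 and, in the dimmest, 0.19 at 4 h. Trim25, the ubiquitin ligase that activates RIG-I, gave 1315 and 707 at 4 h and 1347 and 1297 at 0 h.

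Among transcription factors of the pathway Irf7 and Irf9 were at least 2-fold lower, whereas Irf1 and Stat2 were within 2-fold. Irf7 gave 361 on the irradiated Wip1+/+ array and 138 on the Wip1-/- array, a log2 ratio of -1.39. Irf9, a DNA-binding factor of the type I interferon response, gave 836 and 398, a log2 ratio of -1.07, and Stat2 gave 407 and 302, a log2 ratio of -0.43. Irf1, which responds to interferon gamma and to NF-kB, gave 595 and 621, a log2 ratio of 0.06. Guanylate-binding and immunity-related GTPases showed ratios of different size. Irgm1 gave 3709 and 1689, a log2 ratio of -1.14, while Gbp2 gave 490 and 359, a log2 ratio of -0.45. Igtp and Oasl2 were at the floor on the irradiated Wip1-/- array and at least 6.06-fold and at least 5.55-fold lower.

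Other members at least 2-fold lower were Rtp4, Lgals3bp, Parp9, Trim30a, Samd9l, Parp14, Gbp7, Gbp3 and Iigp1. Rtp4 had a log2 ratio of -2.51 and Lgals3bp, a secreted glycoprotein, one of -2.14. Herc6, a ubiquitin ligase related to the ISG15 ligases, was the member counted as higher, with 79.7 on the irradiated Wip1+/+ array and 238 on the Wip1-/- array, a log2 ratio of 1.58 in its brightest probe set. Its other probe sets had log2 ratios of 0.53 and -0.58 and all were dim, so Herc6 has no single direction. Xaf1, an antagonist of the apoptosis inhibitor Xiap, cannot be given a direction either, although the counts above take its brighter probe set and so hold it as lower. That probe set gave 1117 on the irradiated Wip1+/+ array and 57.8 on the Wip1-/- array, a log2 ratio of -4.27. Its other probe set gave 34.5, below the floor, and 640, so it was higher on the Wip1-/- array by a log2 ratio of at least 3.78.

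Markers of macrophages were lower on the same array. Of 24 listed genes, 22 passed the filter, 22 of these 22 had a ratio below 1 and 19 were at least 2-fold lower, beside 2.94% of all genes. Here too several members, Ms4a6d and Fcgr3 among them, passed only through the Wip1+/+ arrays. On 17 of the 22 the mean of the Wip1-/- arrays reached the filter by itself. Of these 17, 14 were at least 2-fold lower, beside 1.93% of all genes chosen that way. Only 4 members, Lyz1, Lyz2, Ctss and Csf1r, had a mean signal of 500 or more over the 4 arrays. These 4 were at least 2-fold lower, beside 0.797% of all genes of that brightness, but Ctss and Csf1r reached 500 only through the Wip1+/+ arrays. Where the mean of the Wip1-/- arrays reached 500, 2 of 2 members were at least 2-fold lower, beside 0.423% of all genes chosen that way. Over the 22 the median log2 ratio was -1.76 at 4 h and -1.48 at 0 h. The summed signal of the 22 was 20820 at 0 h and 21659 at 4 h on the Wip1+/+ arrays. On the Wip1-/- arrays it was 4780 and 4650, 4.66-fold lower at 4 h. Lyz1 and Lyz2, at 9605 and 4986, made up most of the sum on the irradiated Wip1+/+ array, so this fold leans on them. For the 35 interferon-stimulated genes the summed signal was 33014 and 32651 on the Wip1+/+ arrays against 13745 and 14187, 2.30-fold lower at 4 h and 2.23-fold without Xaf1. The lists shared 0 members. In bulk RNA fewer cells of a type and less RNA per cell cannot be told apart. The part of macrophage RNA in the interferon difference was not tested.

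Lyz2, which encodes lysozyme, a secreted antibacterial enzyme of macrophages, gave 4533 and 4986 on the Wip1+/+ arrays at 0 h and 4 h and 899 and 673 on the Wip1-/- arrays, 7.41-fold lower at 4 h. Lyz1 gave 8923 and 9605 against 1101 and 1565, and since Lyz1 and Lyz2 are near-identical copies their probes may share transcripts. Ctss, the lysosomal protease cathepsin S, gave 1287 and 970 against 121 and 133, 7.29-fold lower at 4 h. Genes of the complement component C1q had log2 ratios of -2.16 for C1qa, -2.39 for C1qb and -2.23 for C1qc. Ratios of receptors differed in size. Csf1r, the receptor for macrophage colony-stimulating factor, gave 707 and 768 against 372 and 333, a log2 ratio of -1.20, and Fcgr3, a receptor for the constant part of IgG, gave 186 and 195 against 33.0 and 27.2, both below the floor, at least 4.19-fold lower at 4 h. Adgre1, the F4/80 antigen, gave 357 at 4 h against 153, a log2 ratio of -1.23, and Cd68, a lysosomal glycoprotein, had one of -1.53.

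On the irradiated Wip1-/- array Fcgr3 and Itgb2 were at the floor and the other 20 macrophage markers above it, with Ms4a6d, Ptprc and Cybb only just above at 48.1, 49.9 and 57.4. The floor is a limit on ratios and not a detection call. The other members at least 2-fold lower were Tyrobp, Cybb, Ms4a6d, Ptprc, Mpeg1, Cd53, Fcer1g and Cd52, with log2 ratios from -2.02 to -1.36. Cd14, Laptm5 and Fcgr2b were within 2-fold, with log2 ratios of -0.65, -0.37 and -0.04. Over probe sets rather than genes, 34 probe sets of the list passed the filter, 32 had a ratio below 1, 26 were at least 2-fold lower and 0 at least 2-fold higher.

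**Figure D2:**
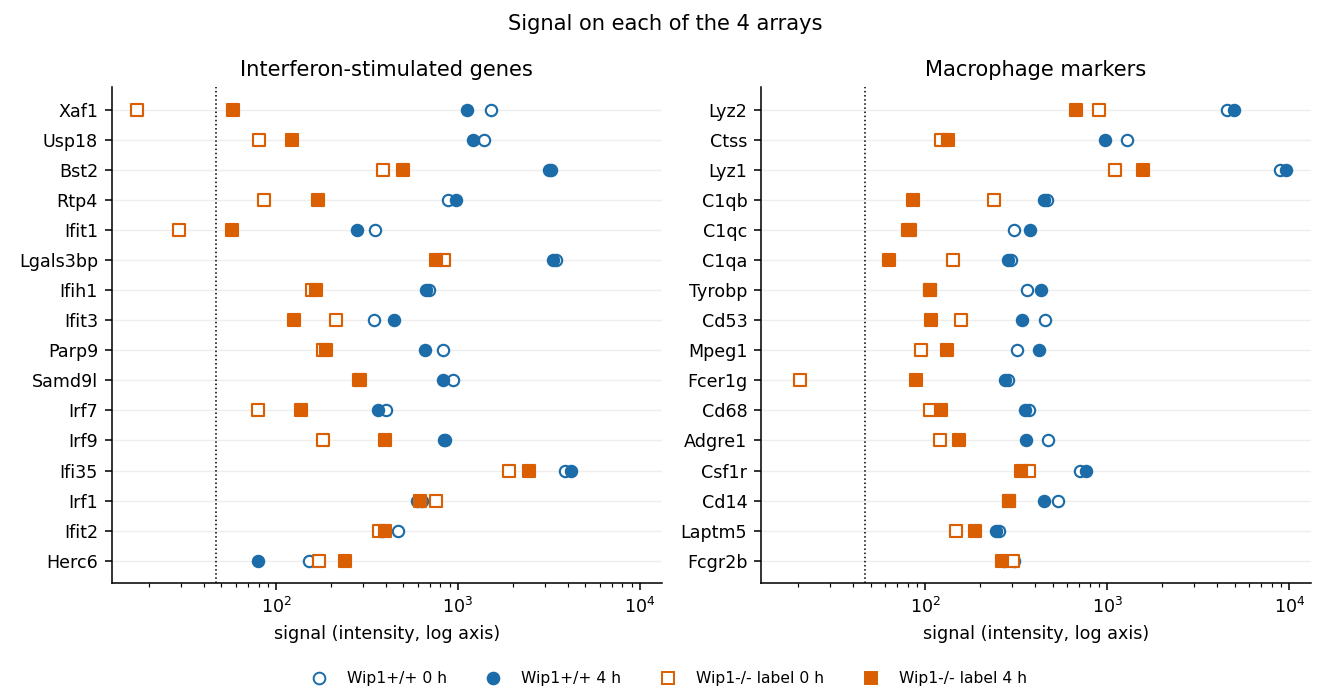
Signal on each of the 4 arrays (horizontal log axis) for 16 interferon-stimulated genes (left) and 16 macrophage markers (right), with the floor as a dotted line. Blue circles are Wip1+/+ arrays and orange squares Wip1-/- arrays, open at 0 h and filled at 4 h. From Xaf1 to Ifi35 and from Lyz2 to Laptm5 both squares lie left of both circles, whereas Irf1, Ifit2, Herc6 and Fcgr2b overlap or lie the other way.

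Genes of antigen presentation by MHC class I, which interferon also raises, had small ratios. Of 13 members entered, 11 had a ratio below 1, beside 50.6% of all genes, 1 was at least 2-fold lower, beside 2.94%, and the median log2 ratio was -0.27. Tap1, the peptide transporter and also a p53 target, gave 193 and 391 on the Wip1+/+ arrays at 0 h and 4 h and 149 and 177 on the Wip1-/- arrays, a log2 ratio of -1.15 at 4 h. Tapbp, which loads peptides onto class I molecules, gave 2760 and 1633 at 4 h, a log2 ratio of -0.76. The class I heavy chain genes H2-K1 and H2-D1 had log2 ratios of -0.52 and -0.45, with their near-identical family members able to share probes. B2m, the invariant light chain, gave 24047 and 21256, a log2 ratio of -0.18.

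Chemokine ligands differed in both directions. Among 16 entered, 5 were past 2-fold on the higher side and 3 on the lower, beside 2.35% and 2.94% of all genes, and the median log2 ratio was 0.42. Among the 4 with a mean signal of 500 or more, 0 were past 2-fold. The higher ones included neutrophil attractants: Cxcl1 gave 94.9 on the irradiated Wip1+/+ array and 196 on the Wip1-/- array, and Cxcl5 gave 93.7 and 217. Ccl20 gave 56.8 and 166, Ccl25 gave 61.8 and 171, and Ccl17 was at least 4.54-fold higher, all at low signals. Ccl2 and Ccl7, attractants of monocytes, were short of 2-fold, with 1445 and 2236 for Ccl2 and 697 and 1209 for Ccl7, log2 ratios of 0.63 and 0.79. The lower ones were Ccl9 with 671 and 148, Ccl6, at least 6.49-fold lower, and Ccl5, at least 3.13-fold lower.

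Targets of NF-kB, the factor that drives many inflammatory genes, did not share 1 direction. Of 24 entered, 15 had a ratio above 1 and 9 below, with 2 past 2-fold above, 3 past 2-fold below and a median log2 ratio of 0.07. Its inhibitor gene Nfkbia gave 3679 on the irradiated Wip1+/+ array and 4343 on the Wip1-/- array, and Tnfaip3, which encodes the feedback inhibitor A20, gave 507 and 493. Icam1, an adhesion molecule for leukocytes, gave 193 and 77.4, a log2 ratio of -1.32. The cytokine Il6 gave 197 and 348, a log2 ratio of 0.82, short of 2-fold, and Saa3, an acute-phase protein, was at least 3.97-fold lower. Ccl5, Cxcl1 and Cxcl5 are the other members past 2-fold. Past that limit lay 20.8% of the NF-kB list, beside 5.29% of all genes. Of its 9 members whose mean signal reached 500, 0 were past 2-fold. Secreted factors linked to senescence had a median log2 ratio of 0.24 over 22 genes. Of these, 4 were at least 2-fold higher and 0 lower, beside 2.35% and 2.94% of all genes. The 4 are Angptl4 and 3 chemokines named above, Ccl20, Cxcl1 and Cxcl5. Among the 9 members with a mean signal of 500 or more, 0 were past 2-fold.

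Direct p53 targets, the genes the arrays were meant to measure, had signals within 1.5-fold of each other in 49 of the 57 entered from 3 lists (86.0%), close to the 85.4% of all genes. Past 2-fold were 5 of the 57 (8.77%), beside 5.29% of all genes, with 1 of them higher and 4 lower. Of the 57, 39 (68.4%) had a ratio below 1, beside 50.6% of all genes. Their median log2 ratio was -0.14 at 4 h and -0.10 at 0 h. Among the 39 with a mean signal of 500 or more, 36 (92.3%) were within 1.5-fold, beside 95.2% of all genes of that brightness. Of these 39, 27 had a ratio below 1, beside 50.1% of all genes of that brightness, 12 had one above 1, beside 49.8%, and 1 was at least 2-fold lower.

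Arrest genes had a median log2 ratio of -0.08 over 18 members. Cdkn1a encodes p21, the inhibitor of cyclin-dependent kinases that carries much of the p53 arrest. Its brighter probe set gave 12735 and 16318 on the Wip1+/+ arrays at 0 h and 4 h and 8920 and 15476 on the Wip1-/- arrays, a log2 ratio of -0.08 at 4 h. Its other probe set gave 2350 and 2313 against 3878 and 4461, a log2 ratio of 0.95, so the probe sets of Cdkn1a did not give one answer. Ccng1, which encodes cyclin G1, gave 31743 and 31247 on the irradiated arrays, a log2 ratio of -0.02. Btg2, an antiproliferative gene, gave 1715 and 1316, a log2 ratio of -0.38, and Gadd45a, which acts in growth arrest and repair, gave 542 and 595, a log2 ratio of 0.14. Sfn, which encodes 14-3-3 sigma, was dim at 134 and 61.1, a log2 ratio of -1.13. Ptprv, a receptor tyrosine phosphatase gene, was at the floor on the irradiated Wip1+/+ array and gave 563 on the Wip1-/- array, at least 12.1-fold higher.

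Apoptosis genes had a median log2 ratio of -0.12 over 18 members, and those past 2-fold were Fas and Perp. Fas, the death receptor, gave 316 and 595 on the Wip1+/+ arrays at 0 h and 4 h and 304 and 231 on the Wip1-/- arrays, a log2 ratio of -1.36 at 4 h. At 0 h its labels gave near-equal signals, and the separation is seen on the irradiated arrays. Fas had 1 probe set, and its 0 h ratio uses the Wip1-/- array that stood apart in its spike-in controls. Perp, a membrane protein of desmosomes and apoptosis, gave 931 and 1157 against 347 and 463, and was apart at both times. Bbc3, which encodes Puma, gave 584 and 522 on the irradiated arrays, and Pmaip1, which encodes Noxa, gave 8522 and 9403. Apaf1, the core of the apoptosome, gave 1988 and 1460, a log2 ratio of -0.45. Pidd1 gave 352 and 248, a log2 ratio of -0.51, and Dapk1, a death-associated kinase, gave 950.4 and 624, a log2 ratio of -0.61.

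Targets with roles in repair and metabolism had a median log2 ratio of -0.18 over 21 members. Of these, 16 had a ratio below 1 and 5 above, beside 50.6% and 49.1% of all genes. Rrm2b, which supplies deoxynucleotides for repair, gave 590.1 and 523 on the irradiated arrays, and Polk, a translesion polymerase, gave 1388 and 1257. Zfp365 gave 944 and 638, a log2 ratio of -0.57, and Lpin1, a lipid phosphatase gene, gave 1219 and 804, a log2 ratio of -0.60. Tap1 was the member at least 2-fold lower. Where the mean of both Wip1+/+ arrays took the place of the irradiated one, the median of the arrest list was 0.09 and that of the apoptosis list 0.10, so the sign of these small medians turned with that choice.

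Negative regulators of p53 had a median log2 ratio of -0.02 over 9 members, with none past 2-fold, beside 5.29% of all genes. Mdm2, whose ubiquitin ligase marks p53 for degradation, gave 6533 on the irradiated Wip1+/+ array and 6285 on the Wip1-/- array, a log2 ratio of -0.06. At 0 h Mdm2 gave 4050 and 5777. Mdm4, its partner, gave 329 and 388, and Siah1a, another ubiquitin ligase gene, gave 809.8 and 419, a log2 ratio of -0.95 and the widest in the list. Kinases and adaptors of DNA damage signalling were split evenly, 12 above and 12 below 1, with a median of -0.03. Atm gave 473 and 342, Chek1 gave 188 and 236, and Mapk14, which encodes p38 alpha, gave 2317 and 2481. Mdc1, which binds phosphorylated H2AX, gave 424 and 203, a log2 ratio of -1.06, the 1 member past 2-fold.

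**Figure D3:**
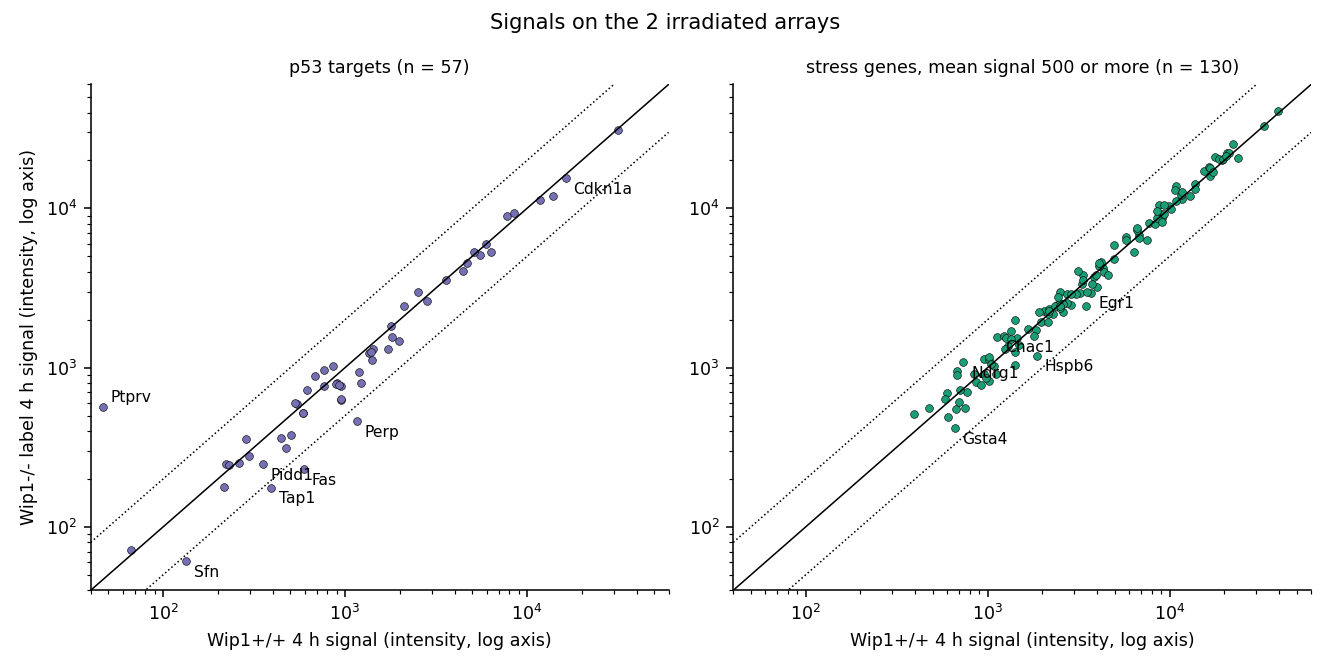
Signal on the irradiated Wip1-/- array (vertical log axis) against the irradiated Wip1+/+ array (horizontal log axis) for 57 p53 targets (left) and 130 stress genes whose mean signal reached 500 (right). The solid line is equality and the dotted lines are 2-fold. Ptprv, at the floor on the Wip1+/+ array, lies above the band and Fas, Perp, Tap1 and Sfn below it, and 0 stress genes lie outside it.

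Bright genes of acute stress responses were nearly level between the irradiated arrays, as most genes of that brightness were. The 130 stress genes whose mean signal reached 500, drawn from 6 lists, had log2 ratios from -0.66 to 0.56 with an SD of 0.21, beside 0.33 for all genes of that brightness. Of the 130, 0 were past 2-fold, beside 1.31%, and 128 (98.5%) were within 1.5-fold, beside 95.2%. Ratios above 1 numbered 72 and ratios below 1 numbered 58, with a median of 0.04. At 0 h, where the Wip1-/- array stands apart in its spike-in controls, 5 of the 130 were past 2-fold, beside 5.78% of all genes of that brightness, and the SD was 0.51.

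Immediate early genes, the first genes transcribed after a stimulus, had a median log2 ratio of 0.05 over 19 bright members. Egr1, a zinc finger transcription factor, gave 1617 and 3701 on the Wip1+/+ arrays at 0 h and 4 h and 2339 and 2952 on the Wip1-/- arrays, a log2 ratio of -0.33 at 4 h. Jun gave 2337 and 2447 on the irradiated arrays, Fosl1 gave 1416 and 1034, and Klf2 gave 678 and 893, log2 ratios of 0.07, -0.45 and 0.40. MAP kinase phosphatases, which like Wip1 act on p38 and its relatives, had a median of 0.24 over 6 bright members. Dusp1 gave 4974 and 5925, a log2 ratio of 0.25. Below a mean signal of 500, Dusp8 gave 244 and 119, a log2 ratio of -1.04 that ran opposite to its 2.19 at 0 h, and its other probe set gave 0.12 at 4 h.

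The integrated stress and unfolded protein responses had a median log2 ratio of 0.05 over 33 bright members. Atf4, their central transcription factor, gave 6665 on the irradiated Wip1+/+ array and 7349 on the Wip1-/- array, and Ddit3, which encodes Chop, gave 2453 and 2423. Chac1, a glutathione-degrading enzyme downstream of both, gave 440 and 1125 on the Wip1+/+ arrays at 0 h and 4 h and 1319 and 1568 on the Wip1-/- arrays. Its log2 ratio was 0.48 at 4 h and 1.59 at 0 h. Hspa5, the chaperone BiP, gave 21336 and 22287 on the irradiated arrays. Heat shock proteins had a median of -0.02 over 24 bright members, in which the small chaperones Hspb6 and Hspb8 lay at the ends, with log2 ratios of -0.64 and 0.48.

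Antioxidant genes controlled by Nrf2 had a median log2 ratio of -0.05 over 27 bright members. Nfe2l2, which encodes Nrf2 itself, gave 3475 on the irradiated Wip1+/+ array and 2423 on the Wip1-/- array, a log2 ratio of -0.52. Hmox1, the haem-degrading enzyme, gave 3986 and 3228, a log2 ratio of -0.30, and Gsta4, a glutathione transferase, gave 659 and 417, a log2 ratio of -0.66. Over 21 bright members of the hypoxia and glycolysis list the median was 0.09. Vegfa, the angiogenic growth factor, gave 1021 and 1166, the glucose transporter Slc2a1 gave 4079 and 4362, and Ndrg1 gave 736 and 1086, a log2 ratio of 0.56.

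**Figure D4:**
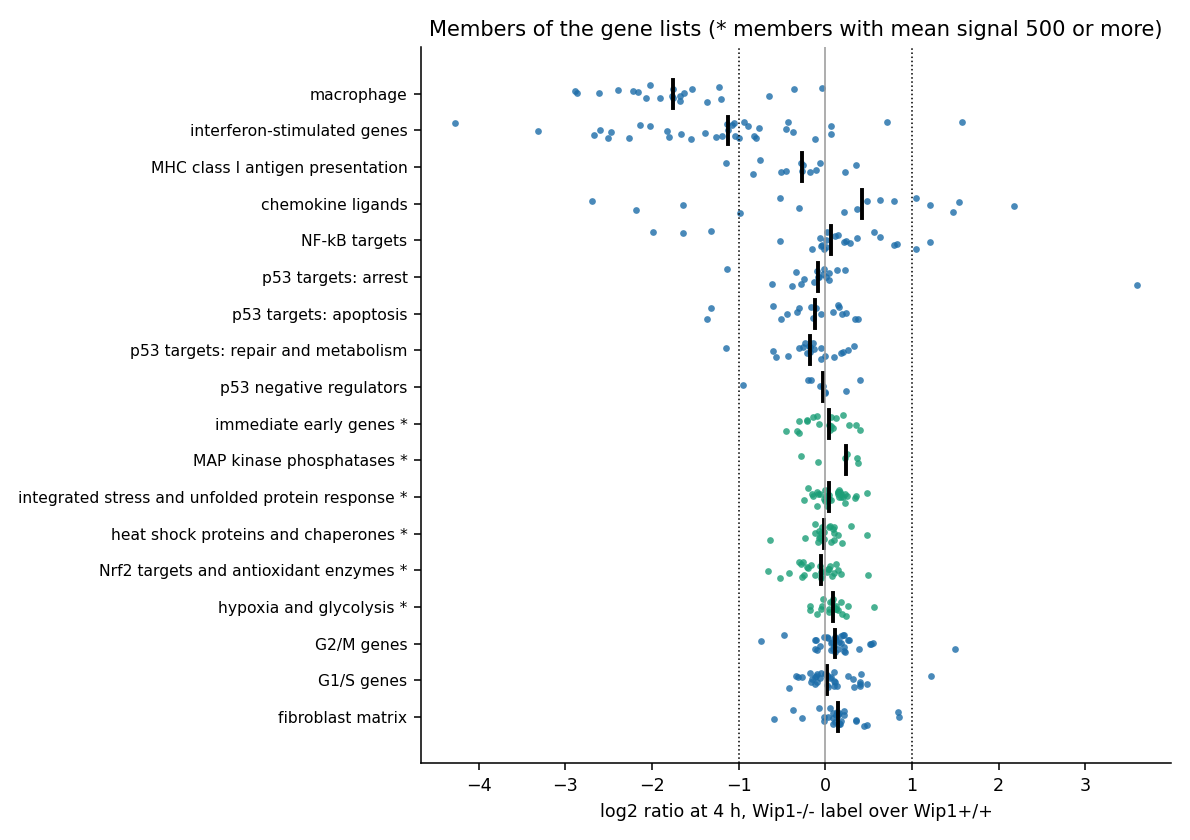
Log2 ratio of the Wip1-/- over the Wip1+/+ array at 4 h (horizontal axis) for the members of 18 gene lists, 1 point per gene, with the list median as a black bar and dotted lines at 2-fold. Macrophage and interferon-stimulated genes have medians of -1.76 and -1.12, and the p53 target and stress lists have medians between -0.18 and 0.24. Points with 1 array at the floor are bounds.

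Cell cycle genes were close to level. Genes of G2 and mitosis had 27 ratios above 1 and 8 below, beside 49.1% and 50.6% of all genes. Their median log2 ratio was 0.12, and 1 member was past 2-fold, beside 5.29% of all genes. That member, the centrosome kinase gene Nek2, gave 252 on the irradiated Wip1+/+ array and 712 on the Wip1-/- array, but its other probe sets, all dim, ran from -0.72 to 0.14. Genes of G1 and S phase had a median of 0.02 over 35 members, with Mcm2, a subunit of the replicative helicase, as the 1 past 2-fold. Mcm2 gave 1266 and 729 on the Wip1+/+ arrays at 0 h and 4 h and 721 and 1704 on the Wip1-/- arrays, and its other probe set had a log2 ratio of 0.03. Proteasome subunits, all with a mean signal of 500 or more, had 27 ratios above 1 among 31, beside 49.8% of genes of that brightness. Their median was 0.09 and none was past 2-fold, beside 1.31%.

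Fibroblast matrix genes had 23 ratios above 1 and 6 below, beside 49.1% and 50.6% of all genes. Their median log2 ratio was 0.14, and 0 of 29 were past 2-fold, beside 5.29% of all genes. Postn, which encodes periostin, gave 10287 on the irradiated Wip1+/+ array and 18335 on the Wip1-/- array, a log2 ratio of 0.83. Mfap5, a microfibril component, gave 992 and 1787, a log2 ratio of 0.85. Igf1, the growth factor that fibroblasts and macrophages secrete, gave 512 and 682 on the Wip1+/+ arrays at 0 h and 4 h and 217 and 198 on the Wip1-/- arrays. Its log2 ratio was -1.78 at 4 h, and the other 3 probe sets of Igf1 were lower as well, from -1.21 to -0.71.

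Several of the widest single ratios lay outside the interferon, macrophage and p53 lists. Cap1, an actin-binding protein gene, gave 514 and 388 on the Wip1+/+ arrays at 0 h and 4 h and 14875 and 12120 on the Wip1-/- arrays, 31.2-fold higher at 4 h. Its other probe set had a log2 ratio of 5.19, beside 4.97 for the brighter one. Erdr1 gave 189 and 160.0 against 5541 and 5944, 37.2-fold higher, but its other probe set had a log2 ratio of -0.06. Rbm45, which encodes an RNA-binding protein, gave 236 and 212 against 2161 and 2063, 9.75-fold higher. Map2, a neuronal microtubule-associated protein gene, gave 93.1 and 76.3 against 508 and 506, and all 4 of its probe sets were higher on the Wip1-/- array. Ifi202b, an interferon-inducible gene of the p200 family, was at the floor on both Wip1+/+ arrays and gave 553 and 468 on the Wip1-/- arrays, at least 10.1-fold higher at 4 h. Tmem87a was at the floor on the irradiated Wip1+/+ array and gave 797 on the Wip1-/- array, at least 17.1-fold higher. Clip4 and Pam were at the same floor, with log2 ratios of at least 2.76 and at least 2.53. Atp10d, Il17re, Thg1l, Oip5 and Cd200, dim genes, had log2 ratios of 2.88, 2.46, 2.29, 2.08 and 2.04, and those of Il17re and Oip5 were -0.33 and 0.05 at 0 h.

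In the lower direction Rpgrip1, a photoreceptor cilium gene, gave 6509 and 6854 in Wip1+/+ cells and 160 and 176 in the cells labelled Wip1-/-, 39.0-fold lower at 4 h. Other probe sets of Rpgrip1 were dim, each at the floor on at least 1 of the irradiated arrays, with log2 ratios of -0.05 and 0.24, so the wide ratio rests on a single probe set. Ang, which encodes the ribonuclease angiogenin, gave 835 and 989 against 6.50, below the floor, and 83.1, a log2 ratio of -3.57. Its other probe sets had log2 ratios of -3.58 and -0.68. Supt16, a histone chaperone gene, was higher, with 912 and 2624 at 4 h and a log2 ratio of 1.52, and 3.79 in its other probe set. In gene order Supt16 is the neighbour of Rpgrip1 on chromosome 14, and 5 genes entered lie between Rpgrip1 and Ang. Qpct, Amacr and Zfp52 had log2 ratios of -2.96, -2.74 and -2.34. Zfp874a, Plxnb3, Zfp945 and C3ar1, a complement receptor gene, were bounds, at least 8.77-fold, 6.46-fold, 6.45-fold and 6.37-fold lower.

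Other probe sets did not always follow the brightest one. Among the 271 higher genes, 99 had a further probe set that exceeded the floor on 1 or both irradiated arrays. The median over such probe sets was also at least 2-fold higher in 15, the same way but under 2-fold in 45 and not higher in 39. Among the 340 lower genes, 126 had one, with 24, 55 and 47 in these classes. For Sdc4 and Ptp4a2, with log2 ratios of 1.96 and 1.44, the other probe sets ran the opposite way, at -0.93 for Sdc4 and from -0.40 to -0.15 for Ptp4a2. Rgs4, a regulator of G protein signalling, was higher in all 3 of its probe sets, from 1.34 to 1.69. Pdgfrl and Fibin, with log2 ratios of 2.41 and 1.43, had a single probe set, and the other probe sets of Mgll, at 2.25, ran from -0.02 in a dim one to 2.32.

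The ratios of the bright genes at 4 h were partly present before irradiation. The 0 h and 4 h genotype ratios share no array. Where the mean signal reached 500, 21 of the 33 higher at 4 h (63.6%) were also at least 2-fold higher at 0 h, which is 20.8% of the 101 called at 0 h (1.58% of these genes). Of the 51 lower, 36 (70.6%) were also lower at 0 h, which is 13.4% of the 269 called there (4.2%). In the brightest class, from 2000 upward, 7 of 7 higher and 10 of 11 lower genes were past 2-fold the same way at 0 h. Over all genes, of which 5.14% were higher and 6.83% lower at 0 h, the shares were 33.6% of the higher and 43.5% of the lower. Across the 6398 bright genes, which are not independent replicates, the ratios at the 2 times had a Pearson correlation of 0.42.

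The genes whose ratio differed most between the times were dim. Pcp4l1 and Mab21l2 had log2 ratios of -1.98 and -2.40 at 0 h and of 0.50 and -0.01 at 4 h. Gbe1, Depp1, Sigirr, Dhh, Ammecr1, Sec14l3 and B3galt4 ran the other way, with log2 ratios of 1.78 to 2.25 at 0 h and of -0.90 to -0.39 at 4 h.

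Among the bright genes apart at 4 h but not at 0 h were Mcm2, Eif2ak2 and Serpinb6e, picked after their values were seen. Serpinb6e, a serine protease inhibitor gene, gave 1236 and 587 on the Wip1+/+ arrays at 0 h and 4 h and 979.5 and 1511 on the Wip1-/- arrays, a log2 ratio of 1.36 at 4 h and -0.34 at 0 h. In the opposite sense Dbi and Nme1 were level at 4 h and apart at 0 h. Dbi, the acyl-CoA-binding protein gene, gave 10885 and 12427 on the irradiated arrays and 10875 and 1888 on the unirradiated ones, and Nme1, a nucleoside diphosphate kinase gene, gave 12297 and 11093 against 12742 and 2054. In both genes it was the unirradiated Wip1-/- array, the one apart in its spike-in controls, that was low. Irradiation and 4 h of further culture cannot be told apart in any contrast between times.

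**Figure D5:**
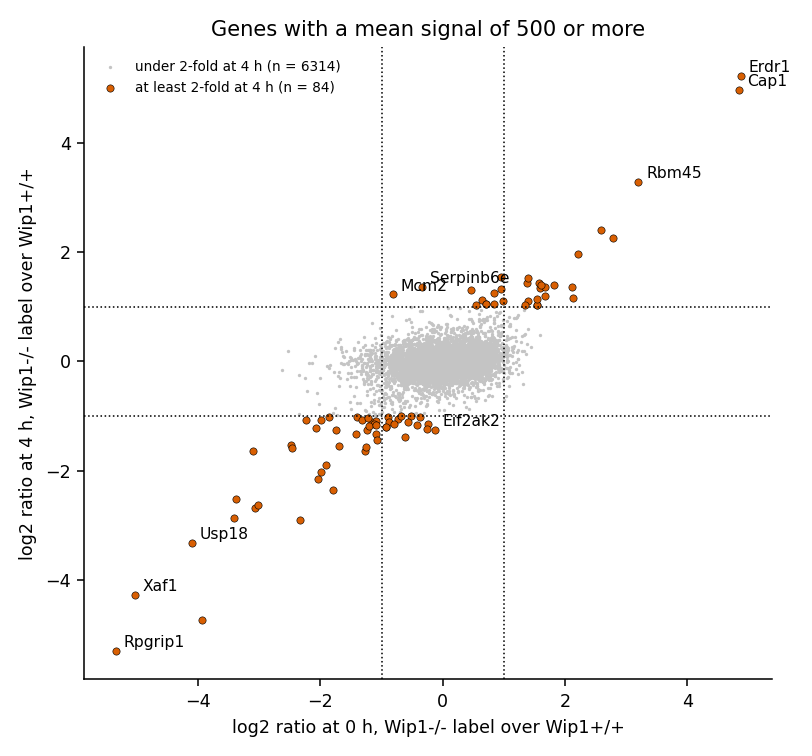
Log2 ratio of the Wip1-/- over the Wip1+/+ array at 4 h (vertical axis) against the same ratio at 0 h (horizontal axis) for the 6398 genes whose mean signal reached 500. Orange points are the 84 genes at least 2-fold apart at 4 h and dotted lines mark 2-fold. Most orange points lie in the lower left and upper right, and Mcm2, Serpinb6e and Eif2ak2 lie near or across the vertical zero.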

How the data were processed

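RNA from mouse embryonic fibroblasts was hybridized to Affymetrix Mouse Genome 430 2.0 arrays, 1 array per genotype and time. Each deposited value is the signal intensity of a probe set on a linear scale, summarised from its probes by the authors. The submitters' processing notes name GCOS, software made by Affymetrix. The sources used here do not give the settings of its background, detection and scaling steps. After trimming 2% of values at each end the mean intensity of each deposited column was 500, and the values were used as deposited.

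Of 45101 probe sets, 64 were controls, 34945 carried 1 symbol in the platform annotation, 932 carried several and 9160 were not listed. Symbols were compared by gene ID with RefSeq GRCm38.p6, and 0 changed. Values below 46.5, the 40th percentile of all values pooled, were set to that floor. Of the probe sets of a gene the one brightest on average over the 4 arrays was taken, and the gene was entered where its mean reached 67.95, the median over probe sets. A gene was called at a ratio of 2-fold or more. With 1 array per group no p-value was computed, nothing in the labels shows separate cultures, and precision is limited by the number of arrays. The 44 gene lists were written from textbook knowledge, and they and the comparison were chosen with earlier results of these data known. Genes were named by these rules: the 10 widest ratios each way above the floor on both arrays, with other probe sets agreeing in direction; the 5 widest bounds each way; the 10 widest each way where the mean reached 500; Ppm1d; list members past 2-fold or, in a list with none, the 2 widest, for stress lists among members whose mean reached 500; and the 10 genes each way whose ratio differed most between 4 h and 0 h. Rik, Gm and LOC names were passed over. A probe set at the floor on either irradiated array did not count in that rule. Further list members are examples picked after their values were seen.

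Alternatives were quantile and cyclic loess normalization in limma 3.58.1 (R 4.3.3), scaling by the median of brighter probe sets, other floors and filters, other choices of probe set, and the mean of both Wip1+/+ arrays. Promoter windows came from RefSeq (GRCm38.p6). The calling step was tested on simulated data. Python 3.11.15, numpy 2.4.6, pandas 2.3.3 and matplotlib 3.10.9 were used.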

Additional observations from a re-analysis of the deposited data

Results flagged for a closer look

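The genotype ratio differed in direction between the times for 43 genes, which were at least 2-fold apart one way at 0 h and at least 2-fold apart the other way at 4 h. The difference was not tested, since each ratio rests on 1 array a side. The 0 h ratio also uses the Wip1-/- array that stood apart in its spike-in controls. Of the 11546 genes entered, 1382 were at least 2-fold apart at 0 h and 611 at 4 h. Of the 43, 0 had a mean signal of 500 or more, and St3gal6, a sialyltransferase gene with a mean signal of 344, had the highest. St3gal6 gave 503 and 235 on the Wip1+/+ arrays at 0 h and 4 h and 159 and 478 on the Wip1-/- arrays, but its other probe sets had log2 ratios of -0.86 and -0.33 at 4 h. Dusp8, Wnt6, Angpt1, Arhgef6, H2-Ke6, Usp13 and Xk are also among the 43.

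Probe sets that carried no single gene symbol were left out of the comparison and also held differences. Of 827 such probe sets with a mean signal of 500 or more, 7 were at least 2-fold higher on the irradiated Wip1-/- array and 15 at least 2-fold lower, 2.66% in all, beside 1.31% of the named genes of that brightness. No gene is given for them here.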

How the results depend on the processing

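The counts of genes past 2-fold were 271 higher and 340 lower, and under 9 of the 12 alternatives both stayed within 1.5 times of these, from 192 to 340 higher and from 298 to 421 lower. A filter at the 67th percentile of probe set means gave 62 and 96, a filter at a mean signal of 500 gave 33 and 51, and the median over the probe sets of a gene gave 172 and 216. The first 2 of these leave fewer and brighter genes, and the share of higher calls ran from 39.2% to 45.6% over all settings. The median log2 ratio was from -1.20 to -0.92 for interferon-stimulated genes and from -2.74 to -1.60 for macrophage markers over these settings. A value was counted as reversed only if it was at least 2-fold as reported and changed sign. Of 1763 values of single named genes under the alternatives, 123 moved by more than 0.41, the SD between probe sets, and a further 5 reversed. With the median over probe sets these were Zfp945 at 0.40, Ptp4a2 at -0.18, Nek2 at -0.15 and Usp13 at -0.15, and without probe sets of types x and s Nek2 was at -0.44, each a value that draws on other probe sets of the gene. Of 513 list medians 2 reversed: the sex-linked list was at 0.40 under both stricter filters, which leave Xist alone in it. A further 14 moved by more than 0.41. Smaller medians could not count as reversed, and many of them changed sign under at least 1 alternative. Among these were the lists of Hox genes, neural markers, DNA damage signalling, heat shock proteins and immediate early genes. The median of ribosomal protein genes was 0.02 as reported, -0.02 under quantile normalization and -0.02 under cyclic loess. Chosen after seeing the data, a limit of 500 on the mean signal left 10 interferon-stimulated genes (9 without Xaf1) and 4 macrophage markers at least 2-fold lower, of 22 and 19, and the same limit on the Wip1-/- arrays alone left 4 and 2, as fewer members enter. No paired analysis was possible because the labels give no replicate numbers and the 4 h difference, with 1 array a side, has no residual degrees of freedom. An additive fit of genotype and time over the 4 arrays estimates another quantity and was not run.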

Other observations

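Genes on either side of Ppm1d on its chromosome were counted from the order in the RefSeq table. Of the 25 nearest genes entered on each side, 5 of 50 were at least 2-fold apart on the irradiated arrays, and these 5 were lower on the Wip1-/- array: Slfn9, Slfn2, Ccl5, Ccl9 and Ccl6. Over the whole chromosome the share was 5.67%, and over the other chromosomes 5.27%. Slfn2, a gene of T cell and macrophage quiescence, gave 365 and 419 on the Wip1+/+ arrays at 0 h and 4 h and 159 and 104 on the Wip1-/- arrays, a log2 ratio of -2.02 at 4 h. Ccl5, Ccl9 and Ccl6 are chemokines that macrophages express, and the part of macrophage RNA in these values was not tested.

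Transcripts linked to the sex chromosomes differed too. The Y-linked genes Eif2s3y and Kdm5d gave 298 and 131 on the irradiated Wip1+/+ array and 138 and 55.3 on the Wip1-/- array, log2 ratios of -1.11 and -1.24, and Uty was at least 2.25-fold lower. Kdm5d and Uty passed the filter only through the Wip1+/+ arrays. Xist, which marks the inactive X chromosome, gave 1119 and 1480 at 4 h, a log2 ratio of 0.40 and short of 2-fold. At 0 h Xist ran the other way, with 1108 and 926 and a log2 ratio of -0.26. A further probe set of Kdm5d had a log2 ratio of -0.17. Xist, Eif2s3y and Kdm5d were above the floor on both irradiated arrays, and Uty on the Wip1+/+ array only.

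Other cell type lists were thin. Endothelial markers had a median log2 ratio of 0.43 over 8 of 14 listed genes, with Emcn at -1.05 past 2-fold. Epithelial markers had one of 0.56 over 9 of 18, with Dsp at 1.01 and Epcam, at least 4.19-fold higher, past 2-fold above and Perp below. Neural markers had a median of -0.30 over 7 of 16, with Map2 past 2-fold, and adipocyte markers one of 0.17 over 5 of 10, with the fatty acid receptor Cd36 at least 5.20-fold lower. Since 5.29% of all genes were past 2-fold, a count of 0 in a list this short says little. None was past 2-fold among 15 myofibroblast genes, 8 skeletal muscle genes, 6 chondrocyte and bone genes, 3 lymphocyte genes, 3 Schwann cell and melanocyte genes and 2 erythroid genes, with medians of 0.08, 0.49, -0.24, 0.14, -0.65 and -0.39. The widest log2 ratios in them were 0.47 for Des and -0.40 for Lmod1, 0.90 for Ckm and 0.77 for Chrna1, -0.38 for Matn3 and -0.31 for Col11a1, 0.94 for Cd8a and -0.60 for Pax5, -0.76 for Tyr and -0.65 for Mitf, and -0.68 for Gata1 and -0.09 for Klf1. No mast cell gene passed the filter.

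Of the remaining pathway lists, DNA repair had a median log2 ratio of 0.03 over 34 genes with Rad52 at 1.27, histone genes -0.14 over 9 with H2bc18 at 1.71 and H2bc22 at 1.60, and Hox genes 0.02 over 25 with Hoxd11 at 1.50. Metalloproteinases and their inhibitors had a median of 0.05 over 19, with the macrophage elastase gene Mmp12 at -1.77, and this median was -0.02 under quantile normalization. Ribosomal protein genes had a median of 0.02 over 23, with Rps6 at -1.38, and IGF system genes one of 0.14 over 10, with Igf1 as the member past 2-fold. Cell cycle inhibitor, cholesterol synthesis, mitochondrial respiration, imprinted growth and housekeeping genes had none past 2-fold, beside 5.29% of all genes. Their medians were 0.03, 0.09, 0.06, -0.06 and -0.08. In these lists the widest log2 ratios were 0.50 for Cdkn2b and 0.47 for Cdkn1b, 0.98 for Stard4 and 0.42 for Ebp, 0.30 for Sdhc and 0.27 for Cox5a, -0.75 for Dlk1 and -0.61 for Peg3, and -0.67 for Hprt and -0.35 for Rplp0. Among proteasome subunits they were -0.38 for Psmd3 and 0.34 for Psmb5. Among bright stress genes Dusp10, Dusp4, Canx and Ddit4 had log2 ratios of 0.37, 0.36, 0.35 and 0.26.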
